A study of Mus musculus and blank sample with 191 samples.

Results

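Collagens are the triple-helical proteins that give the extracellular matrix its shape and strength. The genes described here are the 32 collagen chain genes that were kept in the filtered whole-transcriptome table of the mouse uterus, out of 14881 kept targets. They were chosen by symbol, as the kept genes named Col followed by a type number and an alpha chain number. They were divided into 10 fibrillar chains, 7 chains of the basement membrane and 15 chains of other types. The count table before the filter held 44 collagen symbols.

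The study profiled uterine sections of mice that carry 1 mutated copy of the gene of thyroid hormone receptor alpha 1, the Thra1 PV/+ mouse (PV/N in the labels), and of wild-type mice (WT; N/N in the labels). PV is a knock-in mutation that makes a dominant negative receptor, so both compartments of a mutant mouse carry it. The strain is not named in the labels. Fixed tissue was hybridised with barcoded probes, and a pathologist placed regions of interest over epithelium (mucosa and glands together) or endometrial stroma from morphology and from staining for cytokeratin and smooth muscle actin. The question put to the collagens was how their transcripts were divided between the compartments and whether that division differed between PV and WT mice. PV mice were 2.4 to 6.3 months old and WT mice 4.0 to 9.0 months old, so that genotype and age were partly tied together. Counts of the regions of the first plate were summed for each mouse and compartment, which gave epithelium from 6 PV and 8 WT mice and stroma from 6 PV and 7 WT mice, and 13 mice with both. Levels are log2 of counts scaled to the total of the library as adjusted by TMM scaling in edgeR (log2 CPM). Folds are on the log2 scale with their standard error (SE). Probes differ in yield, so a level is compared between samples and never between genes. The p-values set a change against the spread between these mice. Where the mouse is a block, that spread is the one of the compartment differences.

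The compartment labels were checked against markers. By the balance of epithelial and fibroblast markers, the label fitted all 95 first-plate regions but no more than 58 of the 94 on the second plate (36 were opposed to it), and the first plate alone was used. The summed libraries held from 55661 to 13102749 counts. Mouse PV2 had 1 region in each compartment and the smallest libraries, with 55661 counts in epithelium and 76398 in stroma, and 16 and 7 of the 32 collagen genes there stood at the lowest count that the table holds, which is 1. Some values in which a count of 1 in this mouse takes part are given without it too. The others are given with it only.

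In a fibril-forming collagen the helix runs almost unbroken and molecules pack side by side into fibrils, as types I, III, V and XI do in the interstitial matrix. Type IV chains instead join into a sheet beneath epithelia and around vessels and muscle cells, where types XV and XVIII are also found. Other collagens decorate fibrils (types IX, XII, XIV, XVI and XX), form beaded microfilaments (type VI), anchor the epithelial basement membrane to the matrix (type VII) or span the plasma membrane (types XIII and XXIII). In the uterus the endometrial stroma is the main source of fibrillar collagen and its matrix is remodelled through the cycle and in pregnancy.

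The upstream sequences of 4 genes are shown for the patterns that the results turn on, namely Col3a1 and Col5a1 as fibrillar genes that were several-fold higher in stroma, Col15a1 as the member whose PV level was the lower one at an unadjusted p under 0.05 in each compartment, and Col23a1 as a gene whose level was near equal in the compartments. Each is the 250 bases before the RefSeq transcription start, on GRCm38.p6, 5′ to 3′ on the strand of the gene, and genes were picked among those with no annotated exon in that window. Capitals mark the 4 motifs searched on both strands, which were CCAAT (the CCAAT box), GGGCGG (the GC box), TATAAA (the TATA box) and AGGTCA (the hexamer bound by nuclear receptors, thyroid hormone receptors among them). The windows were chr1:45311288-45311537 (plus strand) for Col3a1, chr2:27886175-27886424 (plus strand) for Col5a1, chr4:47207762-47208011 (plus strand) for Col15a1 and chr11:51289670-51289919 (plus strand) for Col23a1.
Col3a1: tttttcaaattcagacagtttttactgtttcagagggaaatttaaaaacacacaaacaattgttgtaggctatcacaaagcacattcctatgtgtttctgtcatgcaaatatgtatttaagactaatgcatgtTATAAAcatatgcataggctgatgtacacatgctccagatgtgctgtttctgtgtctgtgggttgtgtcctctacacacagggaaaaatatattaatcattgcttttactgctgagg
Col5a1: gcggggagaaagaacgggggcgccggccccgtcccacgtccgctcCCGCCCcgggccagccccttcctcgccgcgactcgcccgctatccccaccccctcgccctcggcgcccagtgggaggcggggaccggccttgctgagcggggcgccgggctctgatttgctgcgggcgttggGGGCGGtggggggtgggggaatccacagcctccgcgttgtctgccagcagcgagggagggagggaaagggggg
Col15a1: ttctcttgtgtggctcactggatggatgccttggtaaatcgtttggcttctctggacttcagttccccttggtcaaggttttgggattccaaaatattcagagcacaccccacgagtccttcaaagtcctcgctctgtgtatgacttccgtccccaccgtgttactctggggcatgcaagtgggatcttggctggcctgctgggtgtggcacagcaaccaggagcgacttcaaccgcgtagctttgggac
Col23a1: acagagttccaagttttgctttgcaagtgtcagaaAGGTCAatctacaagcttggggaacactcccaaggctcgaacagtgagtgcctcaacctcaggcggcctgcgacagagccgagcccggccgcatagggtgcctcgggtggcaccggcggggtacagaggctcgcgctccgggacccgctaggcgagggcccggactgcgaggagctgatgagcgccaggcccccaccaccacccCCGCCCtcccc

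Col3a1 held 1 TATAAA and no other motif, Col5a1 held 2 GGGCGG in a window rich in C and G, Col23a1 held 1 AGGTCA and 1 GGGCGG, and none of the 4 motifs was found in the Col15a1 window. Of the 32 members, 26 were in the promoter table, and Col1a1, Col5a2, Col9a3, Col12a1, Col14a1 and Col26a1 were not. Among the 26 windows GGGCGG was in 17 (65.4%), against 32.7% of all 32851 windows of the table. CCAAT was in 10 (38.5%, against 33.8%), AGGTCA in 6 (23.1%, against 14%) and TATAAA in 3 (11.5%, against 12.4%). The 6 genes with AGGTCA were Col4a4, Col7a1, Col11a1, Col20a1, Col23a1 and Col24a1. Members were counted by 1 window a gene, whereas the shares of the table are over all its windows, with repeats of a gene symbol not removed. Each motif was searched on its own and overlaps were not removed, and a match of letters is a description of the window only.

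Several members are neighbours in the genome. On GRCm38 (GENCODE vM21) Col4a1 lies on chromosome 8 from 11198423 to 11312826 on the minus strand and Col4a2 from 11312805 to 11449287 on the plus strand, so that they start head to head, 21 bases apart, and share 22 bases. Col4a5 and Col4a6 start head to head 1309 bases apart on chromosome X. Col3a1 and Col5a2 start 191744 bases apart on chromosome 1, and Col6a1 and Col6a2 102538 bases apart on chromosome 10.

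The collagen genes were stromal genes in this tissue. The fitted change was above 0 for all 32 members (53% of all genes), and 28 of 32 passed an adjusted p of 0.05 (edgeR quasi-likelihood test, 13 mice, the mouse as a block), all of them higher in stroma. Over all 14881 genes 63% passed in either direction and 34.6% passed as higher in stroma. The median log2 change of the members was 1.76, against 0.05 over all genes. By family, 10 of 10 fibrillar, 6 of 7 basement-membrane and 12 of 15 other members rose in stroma, with medians of 2.14, 2.45 and 0.89. Each family held members whose epithelial counts were near the level of the negative probes, the background of the assay. Examples were Col11a1 (1.56 times that level), Col4a4 (1.74 times) and Col13a1 (1.65 times). The part of such members in the family medians was not tested.

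Among the fibrillar genes the interstitial chains stood furthest apart. Col1a1, which encodes the main chain of type I collagen, had epithelial levels of 5.52 to 9.48 log2 CPM in PV mice (median 8.15) and 6.44 to 9.42 in WT mice (median 8.54). In stroma its levels were 9.37 to 13.07 in PV mice (median 11.53) and 10.40 to 12.31 in WT mice (median 11.26). Every mouse with both compartments had more Col1a1 in stroma, by 2.00 to 3.85 on the log2 scale, and the fitted change was 2.94 ± 0.17 (SE, n = 13, adjusted p = 2.50e-11 in edgeR), or 7.68-fold. Thus the epithelial regions held 13% of the stromal level.

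The partner chain Col1a2 was 6.79-fold higher in stroma (log2 2.76 ± 0.17) and Col3a1, the chain of type III collagen, 6.89-fold (2.79 ± 0.15), each in 13 of 13 mice. Of the type V chains, which set the width of type I fibrils, Col5a1 had the largest fold of the fibrillar family (2.95 ± 0.15, 7.71-fold), followed by Col5a2 (4.91-fold) and Col5a3 (1.97 ± 0.19, 3.93-fold). The cartilage-type and minor fibrillar chains had smaller gaps. Col27a1 and Col24a1 were 2.94-fold and 2.83-fold higher, and Col11a2 (0.69 ± 0.10) and Col11a1 (0.64 ± 0.16) were 1.61-fold and 1.55-fold higher. In epithelium the counts of Col27a1, Col24a1 and Col11a2 were 1.92, 1.60 and 2.39 times the negative-probe level. In stroma they were 5.45, 4.39 and 3.41 times that level. Col11a1 was higher in 10 of 13 mice and its count was 1.56 times the negative-probe level in epithelium and 2.22 times in stroma, so it was close to the background of the assay.

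The basement-membrane genes fell into a high and a low set. Col4a1, which with Col4a2 makes the common type IV trimer, had epithelial levels of 4.52 to 6.33 log2 CPM in PV mice (median 5.54) and 5.59 to 6.68 in WT mice (median 6.13). Its stromal levels were 6.81 to 9.38 in PV mice (median 8.51) and 8.17 to 9.33 in WT mice (median 8.63), and the compartments did not overlap in either genotype. The change was 2.73 ± 0.17 (adjusted p = 6.80e-11 in edgeR, n = 13) for Col4a1 and 2.71 ± 0.15 for Col4a2. Col18a1, the precursor of endostatin, was 6.5-fold higher in stroma (2.70 ± 0.13) and Col15a1, its close relative, 5.48-fold (2.45 ± 0.22). Col15a1 was higher in 12 of 13 mice, and the exception was PV2, in which its count was 1 in both libraries.

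The rarer type IV chains had smaller gaps. Col4a6 was 1.73-fold higher in stroma (0.79 ± 0.15, 12 of 13 mice) and Col4a4 1.67-fold (0.74 ± 0.17, 9 of 13 mice). Col4a5 did not pass (0.37 ± 0.18, adjusted p = 0.0732 in edgeR) and was higher in 9 of 13 mice. In epithelium the counts of Col4a6 and Col4a4 were 2.45 and 1.74 times the negative-probe level, the background of the assay. The part of that background in the smaller gaps of Col4a6 and Col4a4 was not tested. Epithelial Col4a5 was 4.34 to 5.40 log2 CPM in PV mice and 4.58 to 5.46 in WT mice, and stromal Col4a5 4.88 to 6.25 and 3.45 to 6.14. Those ranges overlap in both genotypes, and Col4a5 was not at background, with 6.06 times the negative-probe level in epithelium. Col4a5 passed in 2 other settings, at 0.51 with upper-quartile scaling and 0.46 in mice with at least 2 regions, and it also passed without PV1 (0.44), without WT2 (0.47) or without WT3 (0.45).

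The stroma-minus-epithelium gaps of the type IV chains were compared in the same 13 mice for 3 pairs chosen after the values were seen, and are therefore given as a description with no test. Col4a1 and Col4a2 had mean gaps of 2.64 ± 0.72 and 2.60 ± 0.65 (SD), which differed by 0.04 ± 0.25 (SD, n = 13). Col4a5 and Col4a6, the other head-to-head pair, differed by -0.48 ± 0.86 (SD), with the larger gap for Col4a6 in 10 of 13 mice. The gap of Col4a1 was larger than that of Col4a5 in 13 of 13 mice, by 2.37 ± 1.15 (SD).

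Among the other types the beaded-filament genes of type VI led. Col6a4 had the largest fold of all members, 9.44-fold (3.24 ± 0.17, adjusted p = 8.32e-12 in edgeR), and was higher in stroma in 13 of 13 mice by 2.22 to 4.24 on the log2 scale. Col6a1 (2.75 ± 0.16), Col6a2 (2.71 ± 0.17), Col6a3 (2.49 ± 0.19) and Col6a6 (2.13 ± 0.21) were higher in every one of the 13 mice too. Col16a1, of a fibril-associated type, was 5.23-fold higher (2.39 ± 0.14). The remaining genes had folds under 2. Col7a1, the anchoring-fibril chain, was 1.91-fold higher (0.93 ± 0.24), Col12a1 1.86-fold and Col14a1 1.5-fold (0.58 ± 0.24, adjusted p = 0.0418 in edgeR), whereas Col20a1, Col9a2 and Col23a1 did not pass (0.37, 0.19 and 0.19). The Col14a1 call was lost without any 1 of 9 of the 13 mice (PV1, PV3, PV5, PV6, WT1, WT2, WT4, WT5 or WT7), with adjusted p from 0.0027 to 0.109 over all 13 and changes from 0.46 to 0.80.

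**Figure D1:**
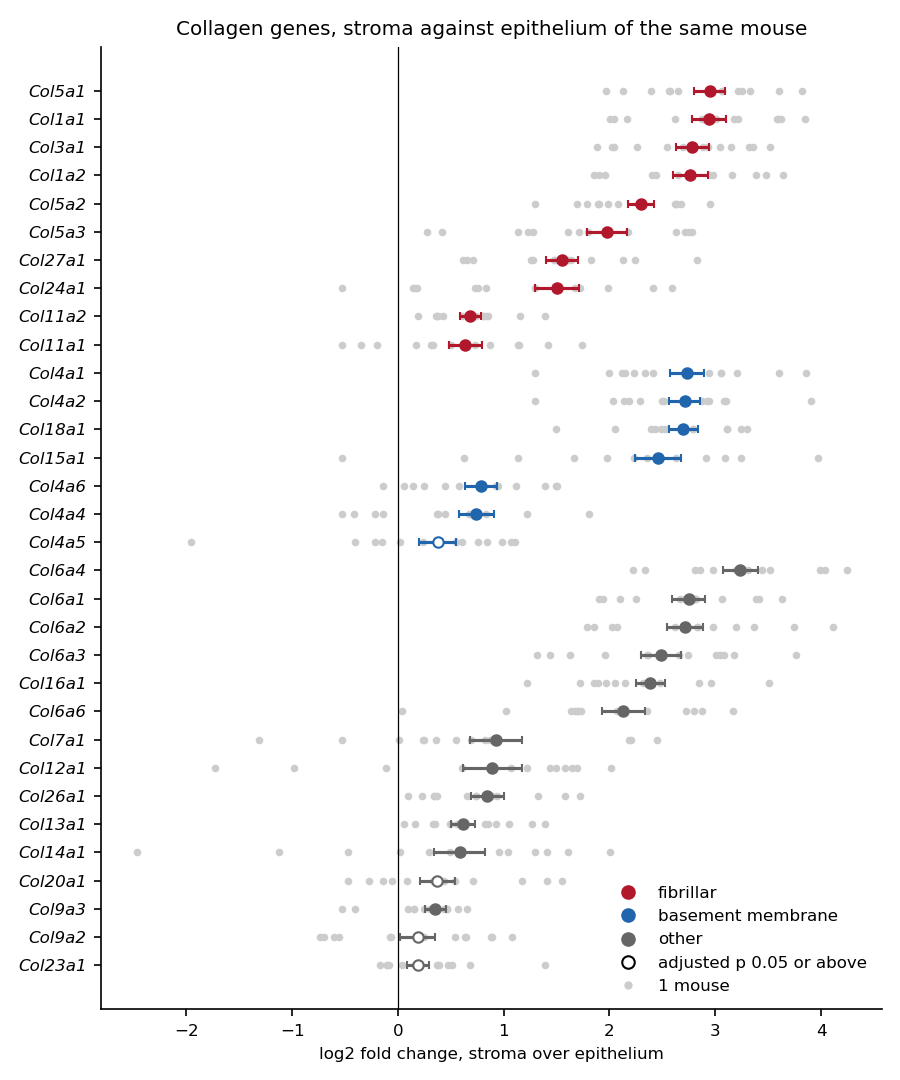
Log2 fold change of stroma over epithelium (x axis) for each of the 32 collagen genes (y axis), grouped by family. Large points are the edgeR estimate with its SE, open where the adjusted p was 0.05 or above, and grey points are single mice (n = 13). Fitted values are all above 0, the type I, III, V, VI and major type IV genes lie above 2 apart from Col5a3, and Col4a5, Col9a2, Col20a1 and Col23a1 are open.

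Markers of other cells moved with the collagens and their part in the result was not tested. Of 10 fibroblast markers that are not collagens 9 rose in stroma, with a median change of 2.64, and the epithelial regions held 10.7% of the stromal level of Vim and 9.9% of that of Dcn, against 13% for Col1a1 and 14.5% for Col3a1. All 8 endothelial markers (median 2.02) and all 7 smooth muscle markers tested (median 1.07) rose too, as did 5 of 7 leukocyte markers, and all 10 epithelial markers fell in stroma. The fibroblast and epithelial markers are those by which the labels were checked before the first plate alone was used. Their changes between compartments are therefore not a separate finding. In summed tissue a gene that fewer cells express and a gene with less RNA in each cell cannot be told apart.

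The gap between compartments was present in each genotype taken alone. In WT mice 25 members passed, of which all were higher in stroma (48.8% of all genes passed and 26.8% passed as higher), and in PV mice 26 did (49.4% and 26.7%). The interstitial genes had fitted gaps of 2.57 in WT mice and 3.42 in PV mice for Col1a1, 2.45 and 3.20 for Col1a2, and 2.56 and 3.08 for Col3a1. Col14a1 was 0.91 in WT mice (adjusted p = 0.0162 in edgeR) and 0.10 in PV mice (0.852). Its gap in single PV mice was -2.47 in PV2, whose stromal count was 1, and -1.12 in PV4. In the remaining PV mice it ran from 0.30 (PV1) to 1.29 (PV6). Col12a1 was 1.34-fold higher in stroma in WT mice and 2.83-fold in PV mice. For neither gene did the difference between genotypes reach an unadjusted p of 0.05.

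The test of that difference, the genotype by compartment term, called 0 of 32 members and 0 of 14881 genes in edgeR (0% of all genes), 1 gene, no member, in DESeq2 and 0 in limma. An unadjusted p under 0.05 was found for 3 of 32 members, a share near that of all genes (7.16%), and the fitted gap of these 3 was wider in PV mice. These were Col1a1 (0.85 ± 0.25, unadjusted p = 0.00322, adjusted 0.579 in edgeR), Col1a2 (0.75 ± 0.27, adjusted 0.601) and Col9a2 (0.76 ± 0.29, adjusted 0.601). The term was above 0 for 22 of 32 members (50.7% of all genes) with a median of 0.42, against 0.00 over all genes. The fibroblast markers showed the same lean, with 9 of 10 above 0 and a median of 0.49, and so did the endothelial markers, with 8 of 8 and a median of 0.54, and the smooth muscle markers, with 6 of 7 and a median of 0.60, and their part in the result was not tested. With both plates summed the sign turned for Col1a1 (-0.26) and Col1a2 (-0.38), and 27 of 32 members were below 0.

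**Figure D2:**
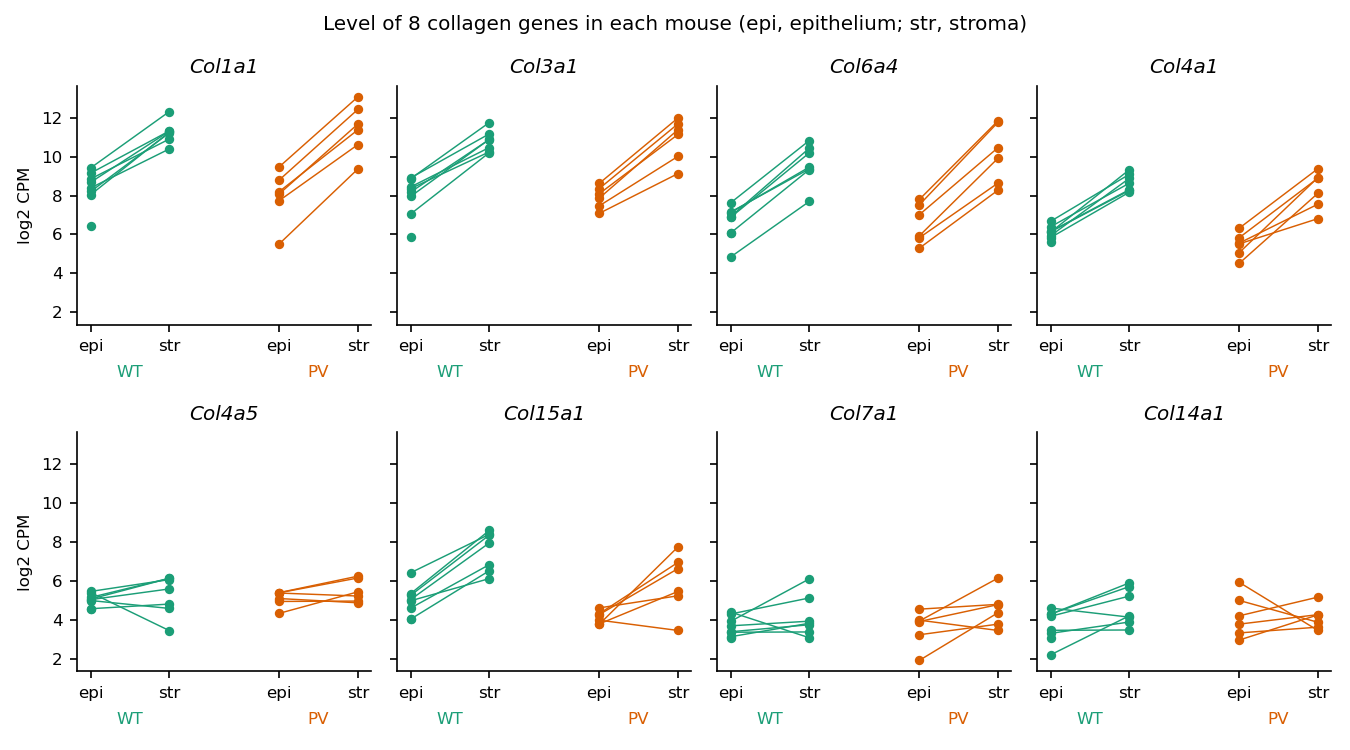
Level in log2 CPM (y axis) of 8 collagen genes in epithelium and stroma of each mouse (x axis), with a line joining the compartments of 1 mouse, for WT and PV mice. Col1a1, Col3a1, Col6a4 and Col4a1 rise from epithelium to stroma in all 13 mice with both, whereas lines of Col4a5, Col7a1 and Col14a1 run both ways. WT6 has epithelium only.

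PV and WT mice did not differ in any collagen gene at the adjusted threshold, in either compartment. In epithelium (6 PV and 8 WT mice) 0 of 32 members and 0 of 14881 genes were called by edgeR (0%), and 2 members had an unadjusted p under 0.05, against 8.22% of all genes. DESeq2 called 28 genes and no member, and limma 0. The median of the members was -0.16, with 23 lower and 9 higher in PV mice (49.4% of all genes were higher), and by family it was -0.16 for fibrillar, -0.17 for basement-membrane and -0.17 for other genes.

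In stroma (6 PV and 7 WT mice) 0 of 32 members and 0 genes were called by edgeR (0%), and 2 members had an unadjusted p under 0.05, against 3.52% of all genes. DESeq2 called 2 genes and no member, and limma 0. Here 19 members were higher (52% of all genes) and 13 lower in PV mice, with a median of 0.10. The fibrillar median was 0.25, that of other genes 0.20 and that of basement-membrane genes -0.19, with 6 of 7 of the last lower in PV mice. In simulated data of the same size, 4-fold changes were recovered in 95.5% of genes in epithelium and 98.5% in stroma, 2-fold changes in 52.2% and 35.8%, and 1.5-fold changes in 4.48% and 2.99%. Each simulated set held 67 genes changed 1.5-fold, 67 changed 2-fold and 66 changed 4-fold. The adjusted threshold is stricter when fewer genes change, so these shares do not hold for a lone changed gene.

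Col15a1 was the one member with an unadjusted p under 0.05 in both compartments. In epithelium its levels in PV mice were 3.78 to 4.62 log2 CPM (median 4.13) and in WT mice 4.04 to 6.42 (median 5.01). All 6 PV mice lay below the WT median, though the ranges overlapped. The change was -1.04 ± 0.35 (2.05-fold lower, unadjusted p = 0.00916, adjusted 0.515 in edgeR). In stroma the levels were 3.46 to 7.75 in PV mice (median 6.05) and 6.12 to 8.60 in WT mice (median 7.96), again with all 6 PV mice below the WT median, and the change was -1.28 ± 0.48 (2.42-fold, unadjusted p = 0.016, adjusted above 0.99). Without PV2, whose Col15a1 count was 1, the changes were -1.03 in epithelium and -1.15 in stroma. With the mean of the fibroblast markers as a covariate they were -0.68 (unadjusted p = 0.14) and -1.24, and with both plates -0.42 and -1.64.

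The other nominal genes appeared in 1 compartment each. In epithelium Col13a1, a transmembrane collagen, was lower in PV mice by 0.44 ± 0.21 on the log2 scale (unadjusted p = 0.0492), with a count 1.65 times the negative-probe level. Its highest level in PV epithelium, 3.99 log2 CPM, was that of PV2 at the lowest count. In stroma Col14a1, which coats fibrils, was lower by 0.86 ± 0.41 (unadjusted p = 0.0471), and its levels of 3.46 to 5.17 log2 CPM in PV mice and 3.48 to 5.90 in WT mice overlapped almost fully. The level of 3.46 was that of PV2 at the lowest count. In epithelium the same gene had the highest fitted change of the members, 0.34 ± 0.41. In stroma the highest was that of Col6a4, 0.86 ± 0.54, with levels of 8.27 to 11.84 in PV mice and 7.70 to 10.83 in WT mice.

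The major collagens had no resolved difference between genotypes. For Col1a1 the change was -0.18 ± 0.42 in epithelium and 0.52 ± 0.46 in stroma, for Col1a2 -0.12 ± 0.30 and 0.52 ± 0.40, and for Col3a1 -0.16 ± 0.37 and 0.30 ± 0.40. Col4a1 was -0.50 ± 0.24 in epithelium (unadjusted p = 0.0547, 5 of 6 PV mice below the WT median) and -0.16 ± 0.34 in stroma, and its partner Col4a2 -0.51 ± 0.26 (6 of 6 below) and -0.26 ± 0.30. Col6a1 was -0.33 ± 0.33 and 0.10 ± 0.44, and Col7a1 0.11 ± 0.30 and 0.45 ± 0.46.

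**Figure D3:**
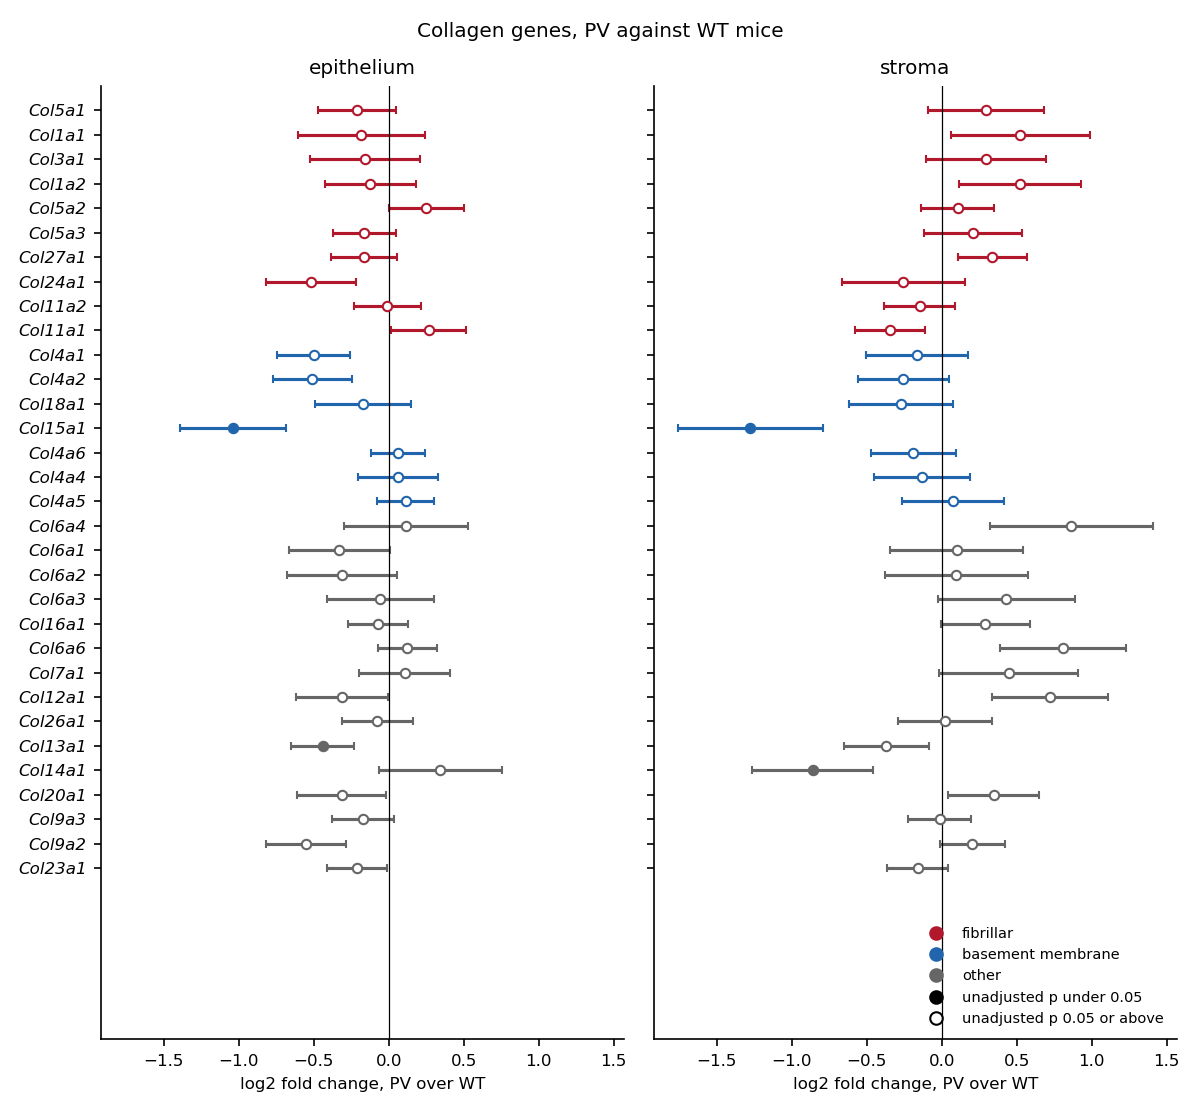
Log2 fold change of PV over WT mice (x axis) with its SE for each of the 32 collagen genes (y axis) in epithelium (left, 6 PV and 8 WT mice) and stroma (right, 6 PV and 7 WT mice). Filled points had an unadjusted p under 0.05, which holds for Col13a1 and Col15a1 in epithelium and Col14a1 and Col15a1 in stroma, and no gene passed after adjustment.

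No fibroblast marker was called between PV and WT epithelium in edgeR, and 4 of 10 had an unadjusted p under 0.05, each with a change below 0. Dcn, the collagen-binding proteoglycan decorin, was 5.14 to 6.71 log2 CPM in PV mice and 6.86 to 7.67 in WT mice, which did not overlap (-0.94 ± 0.22, unadjusted p = 0.000596, adjusted 0.322 in edgeR), and 9 of the 10 fibroblast markers were below 0, with a median of -0.62. Their summed level was 8.27 to 9.50 in PV epithelium and 9.14 to 9.85 in WT epithelium. In stroma the sums were 10.62 to 12.61 and 11.39 to 12.35 and Dcn had a change of 0.01. With the mean of these markers as a covariate the epithelial changes turned above 0 for Col1a1 (0.31), Col1a2 (0.29), Col3a1 (0.49) and Col6a1 (0.06), none past the threshold. In stroma the smooth muscle markers leaned towards PV mice, with 6 of 7 higher and a median of 0.76, and Acta2 at 1.03 ± 0.43 (unadjusted p = 0.0289). There 6 of 8 endothelial markers were above 0, with Kdr at 0.81 ± 0.27 (unadjusted p = 0.00734) and Vwf at 0.82 ± 0.28 (0.00912), and the fibroblast marker Fbln1 was at 1.06 ± 0.32 (0.00383), while in epithelium 7 of 8 endothelial markers were below 0, with Eng at -0.60 ± 0.17 (0.00232). None of these passed the adjusted threshold in edgeR. The fibroblast markers entered as a covariate only, and the part of the smooth muscle and endothelial markers in the collagen values was not tested.

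Age was fitted as a slope per month with the genotype in the model. In epithelium 0 of 32 members were called, against 0.0605% of all genes, and 2 had an unadjusted p under 0.05, against 14.2% of all genes. DESeq2 called 403 genes and no member, and limma 0. Col14a1 fell by 0.29 ± 0.11 and Col11a2 had a slope of 0.16 ± 0.07, in log2 units a month. In stroma 0 of 32 members were called by edgeR (0.175% of all genes) and 8 had an unadjusted p under 0.05 (14.3% of all genes). DESeq2 called 412 genes in stroma, Col4a5 (-0.29, adjusted p = 0.0398) and Col5a3 (0.27, adjusted p = 0.0493) among them, against 26 genes in edgeR and 25 in limma, no member in either.

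The stromal slopes went both ways within the same families. Above 0 were Col24a1 (0.32 ± 0.13 a month), Col4a4 (0.29 ± 0.08, adjusted p = 0.153 in edgeR) and Col5a3 (0.27 ± 0.08, adjusted p = 0.159). Without PV2, whose counts of Col4a4, Col7a1 and Col24a1 were 1, their slopes were 0.28, -0.40 and 0.31. Stromal Col4a4 was 2.89 to 4.90 log2 CPM in PV mice and 3.08 to 4.89 in WT mice, so that the genotypes overlapped. The Col5a3 slope was 0.17 (unadjusted p = 0.129) without WT3, the oldest mouse. Below 0 were Col7a1 (-0.36 ± 0.14), Col4a5 (-0.29 ± 0.09, adjusted p = 0.189), Col14a1 (-0.28 ± 0.12), Col26a1 (-0.20 ± 0.09) and Col4a6 (-0.17 ± 0.08). The major chains were near 0, with slopes of -0.01 for Col1a1, 0.01 for Col1a2, 0.16 for Col4a1 and -0.02 for Col6a1. Ages of the mice were few and the youngest were PV and the oldest WT, so genotype and age could be separated only from 4.0 to 6.3 months.

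**Figure D4:**
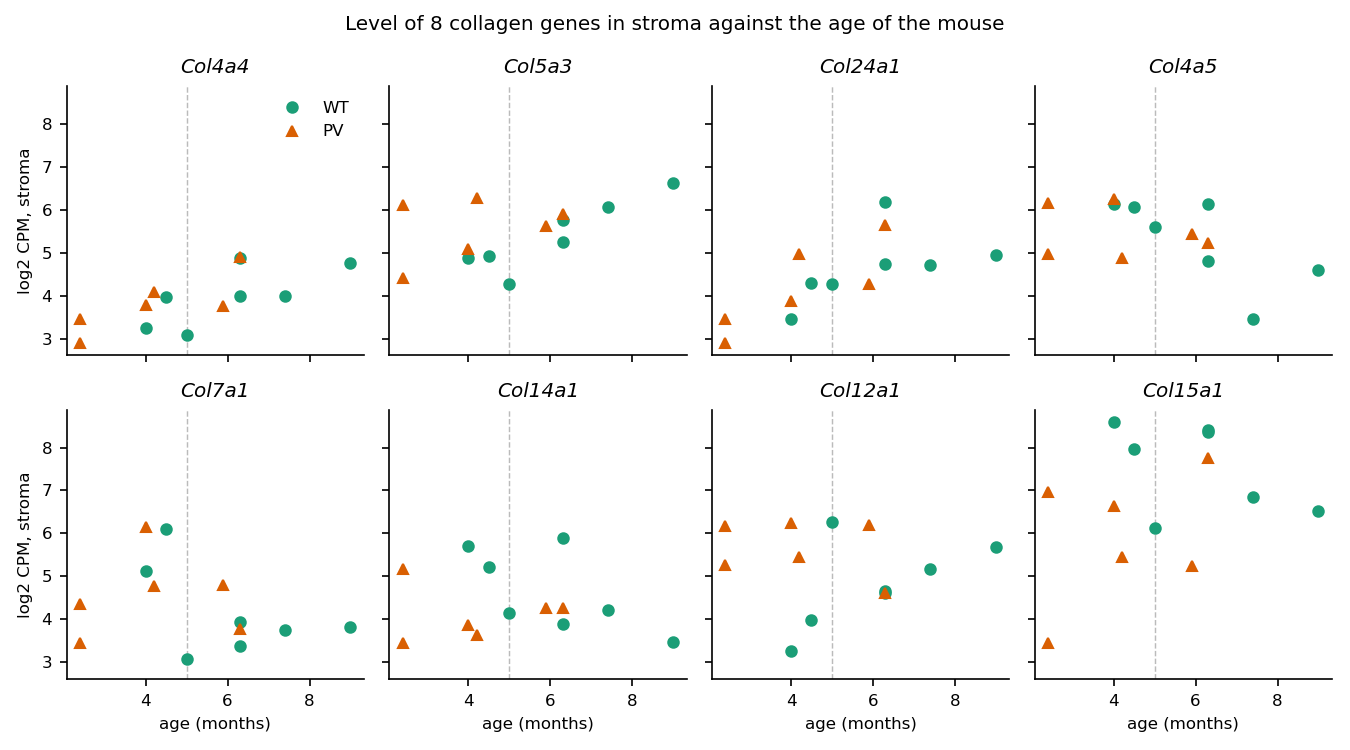
Level in log2 CPM in stroma (y axis) of 8 collagen genes against the age of the mouse in months (x axis), with WT mice as circles and PV mice as triangles and a dashed line at 5 months. The highest Col5a3 value is that of the oldest WT mouse, and the 2 WT mice under 5 months have the lowest Col12a1 values.

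Mice were also divided at an age of 5 months. The groups held 4 PV and 2 WT mice below that age and 2 PV and 6 WT mice from that age in epithelium (5 WT mice in stroma). No member was called in any of the 4 comparisons within an age class by edgeR, where the counts of all genes called were 1 (0.00672%) in epithelium under 5 months and 0 (0%) in the other 3, or by DESeq2, which called 17 and 13 genes in epithelium (under and from 5 months) and 1 and 9 in stroma, or by limma, which called 0. Members with an unadjusted p under 0.05 were 1 in epithelium under 5 months (6.5% of all genes), 3 in epithelium from 5 months (4.56%), 3 in stroma under 5 months (7.86%) and 2 in stroma from 5 months (3.57%).

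The largest of these was Col12a1, which binds the surface of type I fibrils. In stroma under 5 months it was 5.26 to 6.24 log2 CPM in the 4 PV mice and 3.25 and 3.98 in the 2 WT mice, without overlap (2.20 ± 0.53, unadjusted p = 0.00069, adjusted 0.475 in edgeR), and in epithelium it was lower in PV mice, by 0.93 ± 0.38. In mice from 5 months stromal Col12a1 was 4.62 and 6.20 in PV mice and 4.61 to 6.27 in WT mice. The difference between age classes was 4-fold (SE 0.71 on the log2 scale, PV mice relatively lower from 5 months, unadjusted p = 0.0116, adjusted 0.886), and the epithelial value rested on WT7, without which it was 0.05. Under 5 months in stroma Col15a1 was at -2.05 ± 0.69 (unadjusted p = 0.0083, and -1.89 without PV2) and Col14a1 at -1.45 ± 0.55 (0.0175, and -1.48 without PV2). From 5 months they were at -0.59 ± 0.70 (unadjusted p = 0.413) and -0.45 ± 0.62 (0.479), and the difference between the classes was 1.46 ± 0.96 (0.148) and 1.00 ± 0.84 (0.247).

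From 5 months, Col20a1 (-1.19 ± 0.38), Col4a2 (-1.03 ± 0.41) and Col4a1 (-0.89 ± 0.38) were lower in PV epithelium at an unadjusted p under 0.05. In stroma of that class Col6a6 was higher in PV mice (1.69 ± 0.50, unadjusted p = 0.00339) and Col18a1 lower (-1.01 ± 0.46). The genotype by age class term called 0 members in either compartment in edgeR (0% of all genes in both) or DESeq2 (0 and 1 genes) or limma (0) and had 1 member with an unadjusted p under 0.05 in epithelium (3.61% of all genes), Col20a1 at -1.89 ± 0.52, and 2 in stroma (5.52%), Col12a1 as above and Col6a6 at 1.92 ± 0.73. With 2 PV or 2 WT mice in a class, simulated 4-fold differences of this kind were recovered in 28.8% of genes in stroma. Here too the simulated data held many changed genes, drawn at random from all genes. This share therefore does not hold for a lone changed gene and is not that of the collagen genes.

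The genes that make, modify and sense collagen were read beside the chains. Of 30 tested genes for the folding, modification, processing and cross-linking of collagen 21 rose and 5 fell in stroma. The highest by p were Serpinh1, the collagen chaperone (2.45 ± 0.12), Lox, which cross-links fibrils (2.87 ± 0.15), and Bmp1, which trims the C-terminal propeptide (2.15 ± 0.12). P4hb (-0.76 ± 0.16), Mia3 (-0.60 ± 0.14) and Ppib (-0.37 ± 0.11), which serve secreted proteins in general or help to export collagen, were higher in epithelium.

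Of 9 collagen receptors tested 7 rose in stroma, led by Mrc2 (2.38 ± 0.15), Ddr2 (2.00 ± 0.14) and Itga1 (1.41 ± 0.12), and 2 fell, Ddr1 (-1.52 ± 0.13) and Itga2 (-1.12 ± 0.25). The 15 partners of the basement membrane were divided, with 9 higher in stroma and 5 lower. Nid1 (2.79 ± 0.12), Sparc (2.94 ± 0.18) and the laminin chain gene Lama4 (2.03 ± 0.13) rose with Col4a1, whereas the laminin chain gene Lama5 (-2.43 ± 0.13) and Agrn (-1.33 ± 0.14) were higher in epithelium, a side on which no collagen gene passed. No gene of these 3 lists was called between PV and WT mice in either compartment in edgeR. The lowest unadjusted p of each direction in epithelium were those of Pcolce2 (1.14 ± 0.39) and Lox (-1.21 ± 0.42) for making and cross-linking, Ddr1 and Itga10 for receptors and Lamb3 (0.66 ± 0.30) and Lama2 (-0.56 ± 0.23) for partners. In stroma they were Adamts3 (0.42 ± 0.24) and Loxl2 (-0.56 ± 0.29), Itga2 (0.91 ± 0.30) and Itga11 (-0.46 ± 0.31), and Nid2 (0.80 ± 0.26) and Lamc3 (-0.48 ± 0.30).

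Regions of 1 mouse varied too. Of the spread of the members' normalised values over stromal regions, the share that lay between mice had a median of 66.5% in PV mice and 71.4% in WT mice, and in epithelium 37.4% and 47.3%. Such a share is higher by construction where each mouse gave fewer regions, and these groups held 21, 14, 31 and 29 regions in that order. PV1 alone gave 10 of the 21 and 15 of the 31. The shares are therefore not compared between compartments or genotypes. For Col6a4 it was 91.7% in PV stroma and 89.9% in WT stroma. For Col15a1 the share was 68.3% in PV stroma and 24.6% in PV epithelium.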

How the data were processed

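Mouse uterus sections were profiled with a probe-based spatial whole-transcriptome assay. The authors deposited a table of estimated counts per target and region, in which 0 had been replaced by 1 (the lowest value is 1, in 1.79% of the collagen values), for 19962 targets and 189 regions, and a table of signal values, which are those counts scaled by the third quartile (Q3) of each region after a filter on detection. The submitters' processing notes list R 4.1.2 and Space Ranger and the build mm10, and no aligner of the probe reads is named. The labels name 14 animals where the design text names 13, and all 14 were used. Ages carry no unit there and were taken to be months, and one animal had no stroma on the first plate.

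For each mouse and compartment the rounded first-plate counts were added up, without the negative-probe row (0.000527% of the table total), and the 14881 targets of the filtered table were tested with the edgeR 4.0.16 quasi-likelihood test (TMM scaling, R 4.3.3), as a two-sided test at a threshold of 0.05 on p-values adjusted by Benjamini-Hochberg across every gene. The prior count of log2 CPM was 2. Regions are not replicates, and the unit of replication was the mouse. Compartments were compared with the mouse as a block, since both come from the same animal. The deviations of a mouse's compartments from their group means correlated at 0.152 to 0.521 (13 of 13 mice over 0.1). Depth was 55661 to 13102749 counts a library. The code was tested on simulated data over 14881 genes. Alternatives were both plates, DESeq2 1.42.0, upper-quartile scaling, limma 3.58.1 on means of log2 of the Q3 signal plus 1, all targets kept, counts less the negative-probe level, mice with at least 2 regions, covariates and each mouse left out.

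The members and gene lists were chosen with earlier results of these data known. Genes named were all fibrillar and basement-membrane members and the 4 others with the lowest p for the compartments. For PV against WT and for age they were Col1a1, Col1a2, Col3a1, Col4a1, Col4a2, Col6a1, Col7a1, members with an unadjusted p under 0.05 and the largest change in each direction. For the age classes and the genotype terms they were members with an unadjusted p under 0.05, at most 4, and for other lists the 3 lowest p a direction among genes called, or 1 where none was. Other genes were named after their values were seen. The values of 1 gene that this rule names among the other lists are not reported here.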

Additional observations from a re-analysis of the deposited data

Results flagged for a closer look

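Of 104 groups of mice tested for a single outlying value (26 collagen genes in 4 groups), 6 held one by Dixon's criterion at the 95% level, which chance alone gives in about 1 of 20 groups, or 5.2 here. Col1a1 in WT epithelium was 6.44 log2 CPM in WT6, against 8.04 in the next mouse, and WT6 had no stroma on the first plate. Col26a1 in WT epithelium was 2.58 in WT4, against 3.27. Col4a6 in PV epithelium was 4.55 in PV3, against 3.99. The remaining 3 were values of PV2, the mouse with 1 region in each compartment, at 6.81 for Col27a1 in PV stroma (next 5.35), 3.99 for Col6a2 in PV epithelium (next 6.50) and 5.93 for Col9a2 in PV epithelium (next 4.09).

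One collagen gene outside the members, Col8a2, which the filter of the study left out, had 2.13 times the negative-probe count in stroma and 1.25 times in epithelium.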

How the results depend on the processing

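The count of collagen genes that rose in stroma was 28 and was 26 to 31 under the other settings of the first plate, including 26 with no replicate block, and 27 to 30 with each mouse left out, and it was 21 with both plates, where the median change was 0.71 in place of 1.76 and Col4a4, Col7a1, Col9a3, Col11a1, Col12a1, Col13a1 and Col14a1 no longer passed. In PV mice alone both plates left 0 calls among the members. The shares of all genes called are not set beside these counts, so the counts show nothing particular to the collagen genes. No genotype, age or age class comparison called a collagen gene under any setting, except that DESeq2 called 2 by age in stroma. The signs of uncalled values were less stable. With both plates, PV against WT in epithelium gave -0.10 for Col14a1, 0.70 for Col1a1, 0.72 for Col1a2, 0.40 for Col3a1, 0.22 for Col4a1, 0.22 for Col4a2 and 0.32 for Col6a1, and from 5 months 0.42 for Col4a2 and 0.39 for Col4a1. In stroma it gave -0.16 for Col3a1 and -0.14 for Col6a1, the genotype by compartment term -0.26 for Col1a1 and -0.38 for Col1a2, and the age slope 0.14 for Col1a2, 0.043 for Col3a1, 0.088 for Col4a2 and 0.088 for Col6a1 in epithelium and -0.0404 for Col1a2 in stroma. With age as a covariate PV against WT was -0.11 for Col14a1 and -0.057 for Col7a1 in epithelium and 0.15 for Col4a1 and -0.019 for Col7a1 in stroma. With the fibroblast markers as a covariate it was 0.31 for Col1a1, 0.29 for Col1a2, 0.49 for Col3a1 and 0.0601 for Col6a1 in epithelium. With limma on Q3 values it was 0.10 for Col3a1 in epithelium and -0.013 for Col6a1 in stroma, and the age slopes 0.018 for Col1a2 in epithelium and 0.057 for Col1a1 in stroma. In mice with at least 2 regions it was 0.000486 for Col1a1 in epithelium and 0.056 for Col4a1 in stroma, and the slopes -0.055 for Col1a1 in epithelium and -0.043 for Col1a2 in stroma. The other slopes that turned were 0.000305 (DESeq2) and 0.022 (negative-probe level subtracted) for Col1a2 and -0.000251 (no gene filter) for Col1a1 in epithelium, and in stroma 0.023 and 0.0062 for Col1a1 and Col6a1 (upper-quartile scaling), 0.012 for Col1a1 (negative-probe level subtracted) and -0.013 for Col1a2 (no gene filter). With each mouse left out, PV against WT in epithelium ran from -0.19 to 0.55 for Col14a1, -0.56 to 0.000486 for Col1a1, -0.39 to 0.0301 for Col1a2, -0.038 to 0.25 for Col7a1 and, under 5 months, -1.48 to 0.048 for Col12a1, and in stroma from -0.31 to 0.29 for Col6a1 and -0.16 to 1.05 for Col7a1. The slopes ran from -0.14 to 0.093 for Col1a1, -0.11 to 0.043 for Col1a2, -0.036 to 0.052 for Col4a1 and -0.0695 to 0.016 for Col4a2 in epithelium and from -0.20 to 0.093 for Col1a1, -0.14 to 0.098 for Col1a2 and -0.22 to 0.025 for Col6a1 in stroma. The cause of these changes was not tested, and with both plates 36 regions of the second plate lay on the side of the other label.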
